A study of Sus scrofa with 8 samples.

Results

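Genes of voltage-gated potassium (Kv) channels were followed in left ventricles from 4 wild-type (WT) and 4 gene-edited pigs. They are the transient outward channel genes KCND2, KCND3 and KCNA4, the Kv4 partner gene KCNIP2, the Kv1 pore genes KCNA5 and KCNA7, and the beta subunit genes KCNAB1 and KCNAB2. They were taken by symbol from a fixed list, and all 8 were among the 14718 gene rows of the deposited table. The WT group carried the genotype label wt. In the mutant group, replicates 1 to 3 were labelled with a KCNH2 mutation and replicate 4 with a KCNH3 mutation, while the design of the series names KCNH2 only. The labels give no allele, zygosity, founder line, strain, sex, age, treatment or collection date for either group, and describe the cells as heart cells of the left ventricle. Groups of 4 libraries are small, and nothing beyond separate pig numbers says how the animals are related. Where 4 values of a group are listed, they are in the order of replicates 1 to 4.

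Kv channels open when a myocyte depolarizes and let potassium leave the cell. Channels built from KCND2, KCND3 or KCNA4 carry the transient outward current, which gives the early notch of the ventricular action potential in many mammals, and KCNIP2 encodes KChIP2, a calcium-binding subunit that brings Kv4 channels to the membrane and slows their inactivation. KCNA5 encodes the pore of the ultrarapid delayed rectifier, known mainly from atrial muscle, KCNA7 a Kv1 pore of striated muscle, and KCNAB1 and KCNAB2 encode cytoplasmic beta subunits of Kv1 channels. The size of the transient outward current differs between species, and in pig ventricle its calcium-independent part is reported to be small or missing.

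The libraries held 15.9 to 22.4 M recovered reads (M, mega). The 13 mitochondrially encoded protein genes held 15.9% to 87.9% of them (Wilson 95% half-width at most 0.0223 percentage points), less in each mutant than in each WT library. Reads of nuclear genes, to which the Kv genes belong, numbered 2.53 M in WT replicate 3, 7.53 M in the fourth WT library and 11.5 to 16.2 M elsewhere. One read was worth 4.84 normalized counts in WT replicate 3 and 0.611 to 1.21 elsewhere. Among genes with at least 50 normalized counts in each of the other 7 libraries, 198 of 8539 (2.32%) had no read in WT replicate 3, against 0 or 1 gene when any other library was treated in the same way. KCNH2 itself had 148 to 1909 normalized counts in WT and 798 to 1839 in mutant libraries. Its count does not read the edited sequence and checks no label. All 10 cardiomyocyte markers had reads in every library, and their summed normalized counts were 535500 to 731229 in WT and 793778 to 859522 in mutant libraries, without overlap. Within this list only MYH7 separated the groups, with 95432 to 146085 in WT and 233493 to 305804 in mutant libraries. Each of the other markers overlapped. By mean log2 level 8 of the 10 were higher and 2 lower in mutant libraries, against 56.9% of all tested genes higher. The other marker lists overlapped between the groups. In WT and mutant libraries they summed to 10450 to 44409 and 16680 to 25532 normalized counts for endothelium, 6918 to 117465 and 26826 to 72991 for fibroblasts, and 12326 to 35045 and 15511 to 24842 for smooth muscle. For macrophages they summed to 727 to 4275 and 1225 to 3651, for T cells to 15.5 to 138 and 75.9 to 163, for neutrophils to 98.5 to 2300.3 and 14.0 to 344, and for Schwann cells and neurons to 40.6 to 212 and 102 to 183. The adipocyte list summed to 47.5 to 2146 and 103 to 2227 and the erythroid list to 49.7 to 31359 and 2496 to 2966. In bulk tissue, fewer cells of a type cannot be told apart from less RNA per cell.

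None of the Kv genes separated mutant from WT ventricles, and the 2 groups overlapped for all 8. What varied was the individual library: KCNIP2 differed 30.3-fold between the mutant libraries alone and KCND3 14.0-fold between the WT libraries alone. Levels were tested with limma on log2(normalized count + 1), a scale that understates the change of low genes, over the 11660 genes that reached 10 normalized counts in 4 or more libraries. Of the Kv genes 5 passed this filter, and KCND3, KCNA4 and KCNA7 did not. No gene among these 5 had a limma adjusted p under 0.05 (percent called over all genes 0.0%), and none had an unadjusted p under 0.05, against 13.9% of all genes (7.06% higher and 6.8% lower in mutant libraries). Non-overlapping groups were found in 0 of the 5, against 11.4% of all genes. Of the 5, 4 had a higher mean log2 level in mutant libraries and 1 a lower one, with a median log2 difference of 0.43. Over all tested genes 6629 (56.9%) were higher and 5031 lower, with a median of 0.12. On the recovered reads edgeR also called 0 genes of 11878 (14.8% at an unadjusted p under 0.05). DESeq2 called 4.56% of the genes with an adjusted p, and 4.54% are called in the authors' deposited table, none of them a Kv gene of this list.

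**Figure D1:**
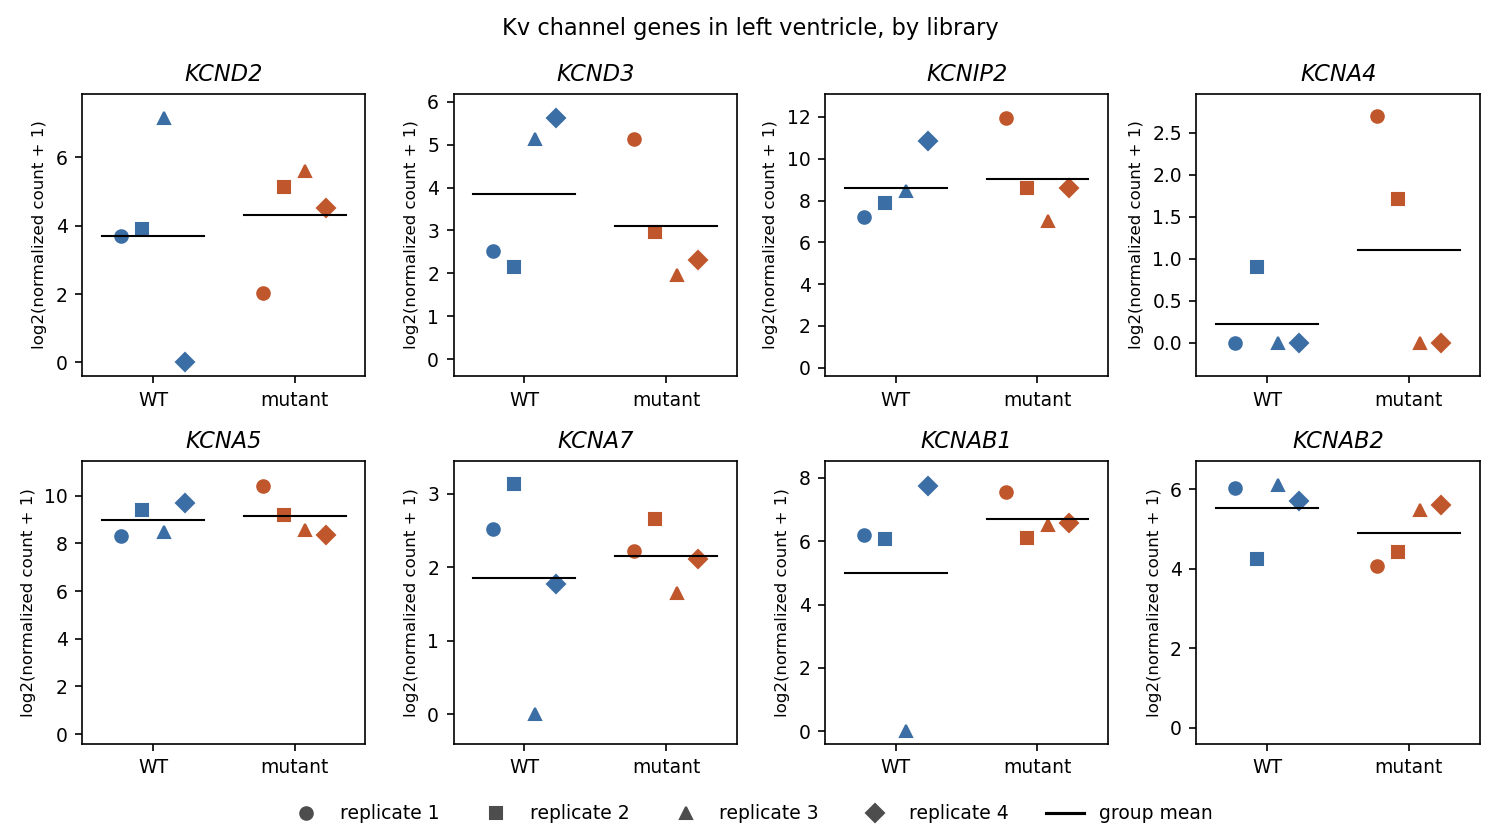
Level of each Kv gene as log2(normalized count + 1) on the vertical axis, by group on the horizontal axis. Each symbol is 1 library, its shape gives the replicate within the group (numbers do not pair animals), and black lines are group means; for every gene the WT and mutant points overlap.

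KCND2 and KCND3 encode the Kv4 pores. KCND2 had 11.9, 13.8, 140 and 0 normalized counts in the WT group and 3.05, 34.2, 47.2 and 21.9 in the mutant group. WT replicate 3 was the highest and WT replicate 4 the lowest of all, so the WT group spanned the whole mutant range. These values rest on few reads: 29 in WT replicate 3, which allow 94.1 to 202 normalized counts (exact Poisson 95% interval, counting error only), and 0 in WT replicate 4, where the limit of 3 reads is 3.64 normalized counts. Those intervals do not meet, so the gap between the 2 WT libraries was wider than counting error. The means were 41.6 ± 66.2 in the WT and 26.6 ± 18.8 in the mutant group (SD, n = 4).

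On the log2 scale the difference of KCND2, mutant minus WT, was 0.63 ± 1.47 (SE; 95% interval -2.65 to 3.92; limma adjusted p = 0.853; exact two-sided permutation p = 0.714). The direction was not fixed. Leaving out WT replicate 4 gave -0.59, leaving out WT replicate 3 gave 1.79, and count models on the same reads gave -0.48 (edgeR) and -0.59 (DESeq2). The mean normalized count was lower in the mutant group while the mean log2 value was higher.

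KCND3, the Kv4 pore gene that carries most of the transient outward current in human and canine ventricle, was scarce. The normalized counts were 4.77, 3.46, 33.9 and 48.5 in the WT group and 34.2, 6.83, 2.86 and 3.97 in the mutant group. The 5 lower libraries held only 4 to 9 reads each, whereas WT replicate 4 held 40 and mutant replicate 1 held 56. The third high value, in WT replicate 3, came from 7 reads and has an interval of 13.6 to 69.9 normalized counts. The level thus differed within each group, with 1 high mutant and 2 high WT libraries. The means were 22.7 ± 22.2 in the WT and 11.97 ± 14.9 in the mutant group (SD, n = 4). The log2 difference was -0.77 (exact two-sided permutation p = 0.543). With single libraries left out it ranged from -1.45 (without mutant replicate 1) to -0.18 (without WT replicate 4), and it was 0.75 when WT replicates 3 and 4 were both left out. The authors' deposited table gives -0.88 ± 1.09 (SE; adjusted p = 0.715).

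KCNA4, the Kv1 pore gene of the slowly recovering transient outward current, was close to the limit of detection. It had 0, 1, 0 and 0 reads in the WT group and 9, 3, 0 and 0 reads in the mutant group, 13 reads in all. A count of 0 allows up to 3 reads, which is 14.5 normalized counts in WT replicate 3 and 1.99 to 3.64 in the other 4 libraries without a read. The 9 reads of mutant replicate 1, or 5.50 normalized counts, have an interval of 2.51 to 10.4. A difference between the groups was not detectable at this depth (exact two-sided permutation p = 0.429), and the authors' deposited table gives no adjusted p.

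KCNIP2 varied most in absolute level. The normalized counts were 147, 238, 349 and 1848 in the WT group and 3897, 389, 129 and 385 in the mutant group. A single library of each group stood high, WT replicate 4 and mutant replicate 1, while the other 6 lay between 129 and 389. Depth was ample, with 72 to 6380 reads per library, and the exact Poisson interval of mutant replicate 1 was 3802 to 3994 normalized counts. The means were 645 ± 806 in the WT and 1200 ± 1802 in the mutant group (SD, n = 4). The log2 difference was 0.43 ± 1.04 (SE; 95% interval -1.91 to 2.77; limma adjusted p = 0.858; exact two-sided permutation p = 0.686). Without mutant replicate 1 it was -0.53, without WT replicate 1 it was -0.03, and without WT replicate 4 it was 1.18. The authors' deposited table gives a fold change (log2 0.89 ± 0.99, SE) but no p for KCNIP2. In a DESeq2 fit of the recovered reads, mutant replicate 1 had a Cook's distance of 15.6 for this gene, above the tool's limit of 10.9, beyond which it withholds p. With that rule switched off, KCNIP2 was still not called (unadjusted p = 0.366).

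**Figure D2:**
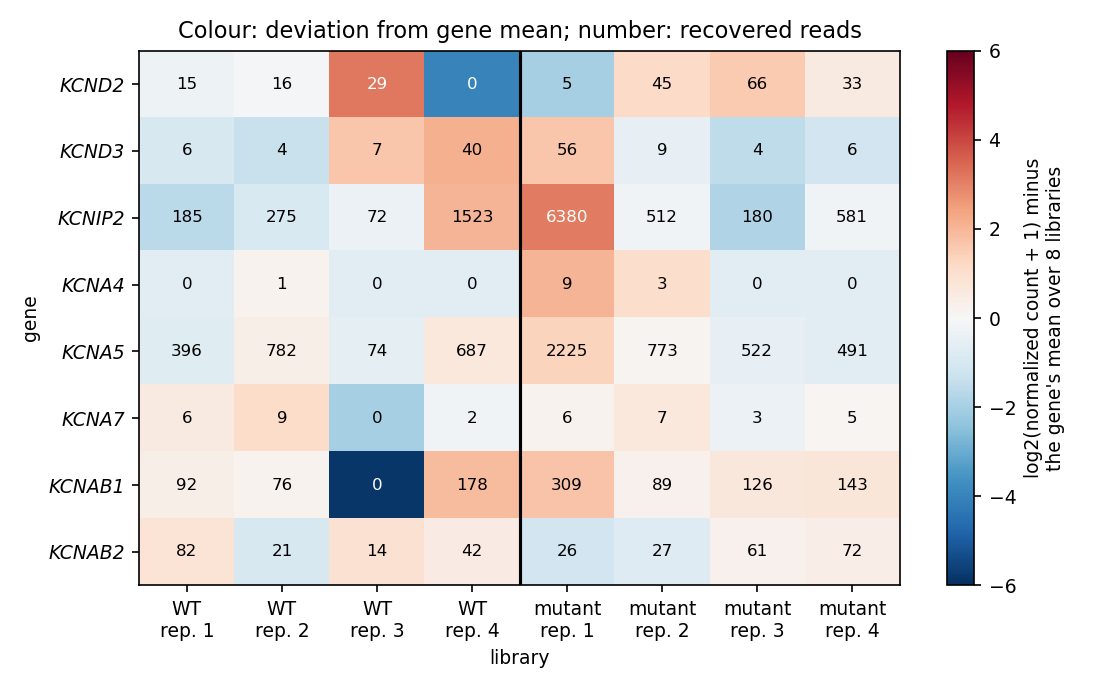
Kv genes in rows and libraries in columns, WT left and mutant right of the black line. Colour gives the gene's log2(normalized count + 1) in a library minus its mean over the 8 libraries, and the number in each cell is the recovered reads; WT replicate 4 and mutant replicate 1 show red cells for KCND3, KCNIP2, KCNA5 and KCNAB1 and blue cells for KCND2.

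The ultrarapid rectifier gene KCNA5 was well covered in every library, with 74 to 2225 reads. The normalized counts were 315, 675, 358 and 833 in the WT group and 1359, 587, 373 and 325 in the mutant group. The highest values were again those of mutant replicate 1 and WT replicate 4, and the remaining libraries of the groups were interleaved. The means were 546 ± 250 and 661 ± 479 (SD, n = 4). The log2 difference was 0.15 ± 0.49 (SE; 95% interval -0.95 to 1.25; limma adjusted p = 0.894; exact two-sided permutation p = 0.857). Among the tested Kv genes this interval was the narrowest, and it still admits a change of either sign. Without mutant replicate 1 the difference was -0.28, and leaving out replicate 1 or 3 of the WT group gave -0.07 or -0.01.

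KCNA7 gave 38 reads over the 8 libraries, 0 to 9 in each WT and 3 to 7 in each mutant library. Its normalized counts ran from 0 to 7.77 in WT and from 2.15 to 5.32 in mutant libraries. The log2 difference was 0.30 (exact two-sided permutation p = 0.771). Its sign rested on the 0 of WT replicate 3, without which it was -0.32, and the authors' deposited table gives -0.25 for KCNA7. At such counts a difference was not detectable.

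Of the beta subunit genes, KCNAB1 had 73.1, 65.6, 0 and 216 normalized counts in the WT group and 189, 67.6, 90.1 and 94.7 in the mutant group. WT replicate 4 and mutant replicate 1 were the highest and WT replicate 3 had no read. Its limit of 3 reads, 14.5 normalized counts, is below the 65.6 of the next lowest library. That limit covers counting error only. In WT replicate 3, 198 of 8539 genes with at least 50 normalized counts in each other library also had no read. The log2 difference was 1.68 ± 1.44 (SE; 95% interval -1.54 to 4.90; limma adjusted p = 0.587; exact two-sided permutation p = 0.429). It was the largest among the 5 tested Kv genes and rested on that one zero: without WT replicate 3 it was 0.01. edgeR and DESeq2 gave 0.28 and 0.29 with all libraries.

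KCNAB2 did not share this order, with 65.2, 18.1, 67.8 and 51.0 normalized counts in the WT group and 15.9, 20.5, 43.6 and 47.7 in the mutant group. Mutant replicate 1, high for KCNAB1, was the lowest library here. WT replicate 2 sat among the low mutant values, so the groups overlapped. The means were 50.5 ± 22.8 and 31.9 ± 16.0 (SD, n = 4), and the log2 difference was -0.63 ± 0.68 (SE; 95% interval -2.15 to 0.89; limma adjusted p = 0.668; exact two-sided permutation p = 0.229). Leaving out WT replicate 2 gave -1.05, and leaving out mutant replicate 1 gave -0.36. The smallest p that the 70 assignments of 8 libraries allow is 0.0286.

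**Figure D3:**
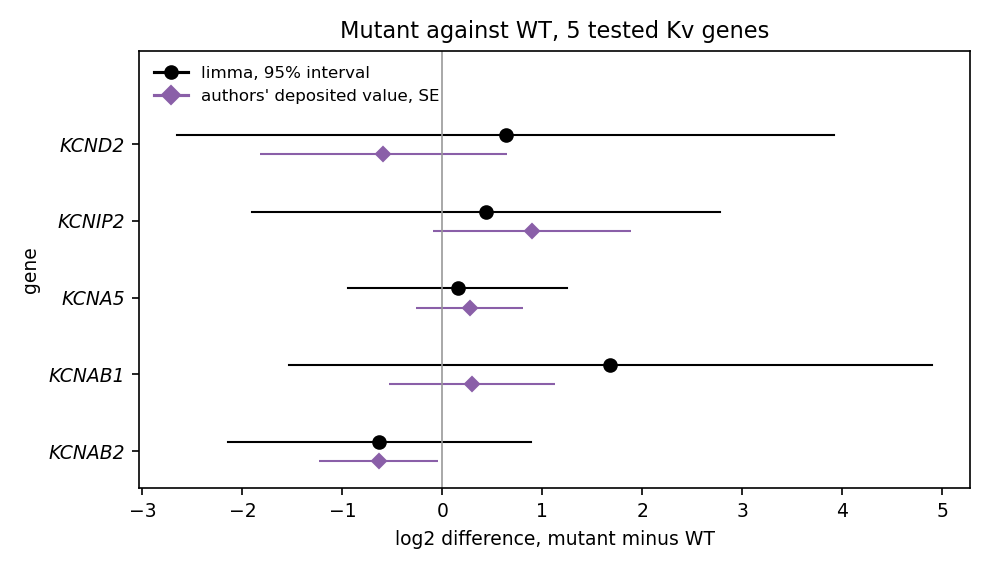
Log2 difference, mutant minus WT, on the horizontal axis for the 5 tested Kv genes. Black circles with lines are limma estimates with 95% intervals and purple diamonds with bars are the authors' deposited log2 fold changes with standard errors; every limma interval includes 0, and for KCND2 the estimates lie on opposite sides of it.

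The spread within groups was larger for most of these genes than for a typical gene. The within-group SD of log2(normalized count + 1) was 2.46 for KCNAB1, 2.35 for KCND2 and 1.84 for KCNIP2, against a median of 0.58 over the 11660 tested genes. These values exceeded those of 97.8%, 96.8% and 90.5% of tested genes. KCNA5 and KCNAB2, with SDs of 0.82 and 0.81, exceeded 67.0% and 66.9%. KCND2 had 0 to 66 reads per library and KCNAB1 had none in WT replicate 3, while KCNIP2 had at least 72 reads everywhere.

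One WT and one mutant library stood at the same end of the range for 5 of the 8 Kv genes. In WT replicate 4 and mutant replicate 1, KCNIP2, KCNA5, KCNAB1 and KCND3 each took their 2 highest values, for KCND3 with WT replicate 3 close behind, and KCND2 its 2 lowest (0 and 5 reads). KCNA4, KCNA7 and KCNAB2 did not place these libraries together. Over all tested genes, 8.87% had their 2 highest values in these libraries and 7.49% their 2 lowest, the second and the third largest share among the 28 pairs of libraries. Both shares were largest for WT replicates 3 and 4, at 11.1% and 14.6%. Some marker genes, picked after their values were seen, also set WT replicate 4 and mutant replicate 1 apart. The cardiac actin gene ACTC1 had 1752 and 32209 normalized counts there, against 83137 to 234540 in the other 6. SLN, which encodes the calcium pump regulator sarcolipin, had 121 and 59.3, against 0 to 5.18. The creatine kinase gene CKM had 42721 and 89065, against 10924 to 31712. The cardiomyocyte list that holds ACTC1 and CKM did not set them apart as a whole: it summed to 535500 in WT replicate 4, the lowest of the 8 libraries, and to 859522 in mutant replicate 1, the highest, and its member TNNT2, a cardiac troponin gene, had 86869 and 87066, within the range of the others. The endothelial list did, with 44409 and 25532, against 10450 to 20835 in the other 6. Not each of its genes followed: CLDN5 was highest in WT replicate 2, at 2538. EGFL7 had 958 in mutant replicate 1, below the 1360 and 2810 of WT replicates 1 and 3. The adipocyte list was also highest in both libraries, with 2146 and 2227, against 47.5 to 1737. So, narrowly, was the T cell list, with 138 and 163, against 15.5 to 136. No other marker list had its 2 highest sums there. MYL4, an atrial and embryonic myosin light chain gene, had 434 and 95.3, against 622 to 5770. The atrial marker list as a whole, with 7 of 8 genes in the table and MYL7 not analysed here, summed to 7022 to 22569 normalized counts in WT and 11586 to 23776 in mutant libraries, which overlapped, with 7022 in WT replicate 4 and 17027 in mutant replicate 1. SLN and MYBPHL were at 0 in some libraries. The conduction system list, 8 of 8 genes, summed to 547 to 3530 in WT and 721 to 931 in mutant libraries, with HCN4, CNTN2 and SHOX2 at 0 in some. The part of any cell type or of the tissue site in these Kv values was not tested. Without both libraries the differences were 0.22 for KCNIP2, -0.03 for KCNA5, 0.17 for KCND2, -0.86 for KCND3, 2.31 for KCNAB1 and -0.30 for KCNAB2, and none was called.

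**Figure D4:**
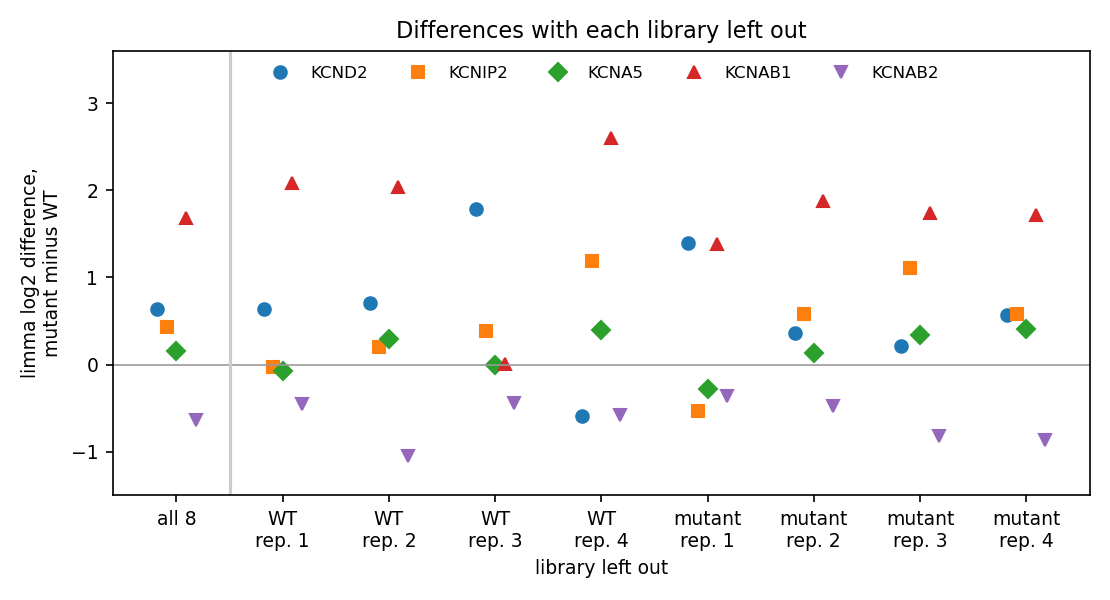
Limma log2 difference, mutant minus WT, on the vertical axis for the 5 tested Kv genes, with all 8 libraries at the left and then with each library left out in turn. KCNAB1 falls to 0.01 without WT replicate 3, KCND2 changes sign without WT replicate 4, KCNIP2 without mutant replicate 1 or WT replicate 1, and KCNA5 without mutant replicate 1, WT replicate 1 or WT replicate 3.

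Ratios within a library depend little on how libraries are scaled, except for low genes, where the pseudocount of 1 counts, and where a gene has no read the ratio reflects the level of the other gene. The log2 ratio of KCNIP2 to KCND3, the partner to a pore of the same channel, was 4.68, 5.74, 3.32 and 5.22 in the WT group and 6.79, 5.64, 5.07 and 6.28 in the mutant group. Although both genes were high in WT replicate 4 and mutant replicate 1, the ratios of those libraries were not alike, and the groups overlapped. The difference was 1.20 (exact two-sided permutation p = 0.143; 0.400 after Benjamini-Hochberg adjustment over 4 ratios), and 0.73 to 1.53 with single libraries left out, the lowest without WT replicate 3. The ratio of KCND2 to KCND3 was lowest in WT replicate 4, at -5.63, and mutant replicate 1, at -3.12. Over all libraries the groups overlapped, and the difference was 1.40 (exact two-sided permutation p = 0.457; adjusted p = 0.457). In the other 6 libraries the WT values were 1.16, 1.73 and 2.02 and the mutant values 2.17, 3.64 and 2.20, without overlap. Those 6 libraries held only 4 to 9 KCND3 reads each. Without WT replicate 4 and mutant replicate 1, a choice made after seeing the data, the difference was 1.03 (exact two-sided permutation p = 0.1). With so few libraries that test could not have called it. For KCNA4 to KCND3 the difference was 1.65 (exact two-sided permutation p = 0.200; adjusted p = 0.400), with too few KCNA4 reads to read more from it. For KCNAB1 to KCNAB2 it was 2.31 (exact two-sided permutation p = 0.343; adjusted p = 0.457), or 0.45 without WT replicate 3.

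Partners of the Kv4 channel other than KCNIP2 were mostly scarce. Of 11 listed genes, all in the table, 8 fell below the filter, namely the Kv4 pore gene KCND1, the KChIP genes KCNIP1, KCNIP3 and KCNIP4, the dipeptidyl peptidase-like subunit genes DPP6 and DPP10, and KCNE2 and KCNE5 of a family of small subunits. KCNE2 had 0 reads in each WT library, and 37, 6, 1 and 5 reads in the mutant libraries, or 22.6, 4.56, 0.715 and 3.31 normalized counts. A count of 0 allows up to 3 reads, which is 14.5 normalized counts in WT replicate 3 and 2.38 to 3.64 in the other WT libraries. Only mutant replicate 1 lay above all of these limits. Of the 3 tested, 2 were higher and 1 lower in mutant libraries, and none had an unadjusted limma p under 0.05. KCNE1, whose product also joins KCNQ1 in the slow delayed rectifier, had 335, 579, 0 and 216 normalized counts in the WT group and 855, 297, 162 and 117 in the mutant group. KCNE3, of the same family, had 0 to 864 in WT and 143 to 219 in mutant libraries, and KCNE4, another member, had 6.07 to 40.5 and 10.6 to 26.3. The direction of KCNE3 turned with the scale: its log2 difference was 1.84 in limma, while its mean was 265 in the WT and 181 in the mutant group, and the authors' deposited table gives -0.55. For KCNE1 and KCNE3 the 0 was that of WT replicate 3, and their mean log2 levels were higher in mutant libraries only with that library included. The limma adjusted p-values were 0.655 for KCNE1, 0.608 for KCNE3 and 0.968 for KCNE4.

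Among the other Kv1 subunits 1 of 6 listed genes was tested, the beta subunit gene KCNAB3, with 519 ± 205 normalized counts in the WT and 420 ± 56.3 in the mutant group (SD, n = 4; limma adjusted p = 0.705). Of 16 genes of Kv2, Kv3 and modifier subunits 13 were in the table and 1 was tested. This gene, KCNC4, encodes a Kv3 pore with fast inactivation and had 14.3, 46.6, 160 and 71.6 normalized counts in the WT group and 15.9, 20.5, 7.87 and 8.61 in the mutant group. WT replicate 1 lay within the mutant range and the other WT libraries above it. The log2 difference was -2.03 ± 0.83 (SE; 95% interval -3.88 to -0.17; limma adjusted p = 0.323). It is called lower in the authors' deposited table (log2 fold change -2.42 ± 0.72, SE; adjusted p = 0.0266), the only gene it calls on these 4 lists. KCNC4 rests on 241 reads in all. Below the filter, KCNB2 and KCNC1 of the same list had, like KCNE2, 0 reads in each WT library and some in each mutant library. They held 17 and 19 reads in all.

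Genes that traffic, anchor or control Kv channels were all measured, 22 of 22. Of these 16 were higher and 6 lower in mutant libraries, with a median log2 difference of 0.42 against 0.12 over all genes. An unadjusted limma p under 0.05 was reached by 3 of the 22, against 13.9% of all genes in either direction. All 3 were higher (7.06% of all genes were higher at this p), and none had an adjusted p under 0.05. DLG1, which encodes the scaffold SAP97 that binds Kv channels, had 641, 714, 974 and 398 normalized counts in the WT group and 1347, 1014, 1162 and 1427 in the mutant group, without overlap. Its log2 difference was 0.92 ± 0.29 (SE; limma adjusted p = 0.258). NEDD4L, a ubiquitin ligase that acts on membrane channels, had 515 ± 314 in the WT and 1105 ± 375 in the mutant group (SD, n = 4; limma adjusted p = 0.302). The transcription factor gene MEF2C had 749 ± 256 and 1153 ± 111 (SD, n = 4; limma adjusted p = 0.329), also without overlap. DLG1 and MEF2C were the 2 of 22 genes whose groups did not overlap, against 11.4% of all genes. The summed cardiomyocyte markers were higher in each mutant library, though within that list only MYH7 separated the groups. The part of these markers in the DLG1, NEDD4L and MEF2C values was not tested. IRX5, an Iroquois factor known in mouse for holding Kv4 expression down in the inner wall, and its relative IRX3 had log2 differences of -0.24 and 0.22.

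The genes most like each tested Kv gene over the 8 libraries were sought by Pearson's r of log2(normalized count + 1) among genes with a mean normalized count of at least 50, 10137 or 10138 per Kv gene. KCNIP2 was closest to CLYBL, a mitochondrial lyase gene (r = 0.97), ABCB10, a mitochondrial transporter gene (r = 0.96), and OXR1, an oxidation resistance gene (r = 0.96). CLYBL had 147 normalized counts in WT replicate 4 and 176 in mutant replicate 1, and 51.5 to 87.4 elsewhere. KCNA5 was closest to SH3YL1 (r = 0.97), to the insulin receptor adaptor gene GRB14 (r = 0.96) and to TXLNB (r = 0.95). GRB14 had 518 and 695 normalized counts in those libraries and 209 to 377 elsewhere. KCND2 was closest to SLC2A11 (r = 0.99), TSPAN31 and SPON1 (both r = 0.98), and KCNAB1 to FBXO28 (r = 1.00), ZNF2 and LRRC8C (both r = 0.99). All 3 of the latter were lowest in WT replicate 3, at 19.4, 0 and 33.9 normalized counts. KCNAB2 was closest to FLNA, a filamin gene that is also on the anchoring list (r = 0.99), MED8 (r = 0.97) and RTKN (r = 0.95). These r describe 8 libraries that share their depth and scaling. Each is among the 3 highest picked from 10137 or 10138 genes, and none was tested.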

How the data were processed

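Polyadenylated RNA of the left ventricle was sequenced in 8 pig libraries, per the labels' protocols, with a kit and random primers. The counting is not said to use strand. Reads of overlapping or antisense genes therefore could not be told apart. The authors deposited a table with 1 signal column per library, which holds read counts divided by a size factor (normalized counts), and with their log2 fold change and its standard error, a Wald score, and p-values, per the file headers. The submitters' processing notes name DESeq2 and the human build GRCh38. The aligner is not given in the sources used here, nor the annotation. No coordinates or sequences are printed.

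All values were whole multiples of 1 read (100.0% within 1e-06 reads), and reads were recovered by division. Depth per library was 15.9 to 22.4 M reads (M, mega). Of 14720 rows, 2 carry no gene name (0.392% to 0.853% of reads) and were left out. All 8 symbols matched pig genes. Main test: limma 3.58.1 (trended, robust prior; R 4.3.3) on log2(normalized count + 1), 4 WT against 4 mutant, at least 10 normalized counts in at least 4 libraries, Benjamini-Hochberg adjustment over all genes, tested on simulated data. The spread of the simulated data was set beforehand, so they do not show which changes the test can find in these libraries. Single values were also tested by exact two-sided permutation, unadjusted; p adjusted over the 8 genes alone was planned but is not given. Alternatives were edgeR 4.0.16 and DESeq2 1.42.0 on the reads, other scalings, pseudocounts, filters, priors and weights, and libraries left out. Leaving out WT replicate 4 with mutant replicate 1, and DESeq2 without its outlier rule, were added after seeing the data.

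The genes and lists were chosen with earlier results of these data known. Named are all 8 genes, from each pathway list the 3 with the smallest p, and for each tested gene the 3 genes with the highest r. One gene was dropped from the Kv4 partner list and is not reported here. IRX3, IRX5, the marker genes and those listed as below the filter were named outside this rule. Marker lists cover cardiomyocytes, atrial and conduction cells, endothelium, fibroblasts, smooth muscle, macrophages, T cells, neutrophils, Schwann cells, adipocytes and erythroid cells. Replicate numbers follow the order of the records and pair nothing, and a p-value reflects only how these samples vary, which may be technical in part.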

Additional observations from a re-analysis of the deposited data

Results flagged for a closer look

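In 6 of 40 groups of 4 values, 1 library lay far from the other 3, with a gap to the nearest of them above Dixon's 95% critical share of the group's whole range. For normally distributed values chance gives this in about 1 in 20 groups, and normalized counts are skewed. As log2(normalized count + 1), the KCNIP2, KCND3 and KCND2 values below have gaps of 0.517 to 0.680 of the range, under the critical share. KCNIP2 was set apart in both groups, by WT replicate 4 at 1848 normalized counts (gap 0.881 of the range) and by mutant replicate 1 at 3897 (0.931). Mutant replicate 1 also stood high for KCND3 at 34.2 normalized counts (0.873). In the WT group, replicate 3 stood high for KCND2 at 140 normalized counts (0.902), and replicate 4 stood low for the log2 ratio of KCND2 to KCND3 at -5.63 (0.888). KCNA4 in WT libraries was set apart by a single read in replicate 2, where 0 reads in the other 3 make the share 1.0.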

How the results depend on the processing

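No alternative called any of the 8 Kv genes, and 0 had an unadjusted p under 0.05 in each fit that tested them. For KCND3, KCNA4 and KCNA7 the runs with libraries left out used the exact permutation test. That test cannot reach 0.05 with fewer than 8 libraries, so those runs could not have called these genes. Directions were less stable. KCND2 (0.63) was -0.48 in edgeR, -0.59 in DESeq2 with or without its outlier rule, and -0.047 after quantile rescaling, and ranged from -0.59 to 1.79 with single libraries left out. KCNIP2 (0.43) was -0.13 with array quality weights and -0.53 to 1.18 with single libraries left out. KCNA5 (0.15) was -0.39 with weights, -0.032 without WT replicate 4 and mutant replicate 1, and -0.28 to 0.41 with single libraries left out. KCNAB2 (-0.63) was 0.17 with weights, and KCNA4 (0.88) was 2.16 in DESeq2. Without WT replicates 3 and 4 the ratios of KCND2 and KCNA4 to KCND3 differed by -0.23 and -0.10, and KCNA7 (0.30) by -0.67. The ratio of KCND2 to KCND3 ranged from -0.42 to 2.85 with single libraries left out. The number of these genes higher in mutant libraries (4 of 5) was 2 of 2 at a minimum of 100 and 2 to 4 with single libraries left out.

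Over all genes limma called 0, and 582 were called by DESeq2 (637 without its outlier rule), 92 with weights, 3 after quantile rescaling, 12 without WT replicates 3 and 4, 4 without WT replicate 4 and mutant replicate 1, and 0 to 3 with single libraries left out. At an unadjusted p under 0.05 limma found 1616, 921 to 2192 with single libraries left out, and DESeq2 without its outlier rule 2445. Of the 27 pathway genes tested in limma 4 reached that p, against 13.9% of all genes. DESeq2, with or without its rule, gave 11 and limma without a filter 9, and both also covered pathway genes below the filter. The count was 7 with weights and 7 without WT replicates 3 and 4. It was 1 without WT replicate 4 and mutant replicate 1, and 1 to 4 with single libraries left out. Over all genes 2374 reached that p in DESeq2 with its rule, 1812 without a filter and 2257 with weights. Without WT replicates 3 and 4 they numbered 1866, and without WT replicate 4 and mutant replicate 1 they numbered 1328. The causes were not tested. No paired analysis was possible because the replicate numbers only follow record order. The few reads of KCND3, KCNA4 and KCNA7 limit what these libraries can show.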
